A study of Mus musculus with 10 samples.

Results

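The genes described here encode the proteins of the cytosolic ribosome, in melanomas of a mouse model. They were chosen by symbol alone (Rpl or Rps followed by a number, together with Rplp0, Rplp1, Rplp2 and Rpsa), without the kinases named after Rps6. The array annotation gave 56 such symbols on 85 probes. Of these, 52 genes on 75 probes were detected on at least 3 of 10 arrays, out of 11984 genes tested. The other 4 symbols were Rpl17, Rpl6 and Rps23, detected on 0 arrays, and Rps20, detected on 2. None of their probes exceeded an intensity of 93.1, where array medians lay at 79.4 to 93.9, and they were not analysed further. Ribosomal proteins whose symbol the annotation did not pair with a probe were not analysed here.

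RNA came from 10 frozen skin tumors of C57BL6 mice with the genotype BrafV600E-CDK4R24C. In all of them tamoxifen had been put on the skin for 4 days to switch on the mutant Braf allele, and a single dose of the carcinogen DMBA had followed. The labels call 5 tumors pigmented and 5 MPNST-like (amelanotic), after malignant peripheral nerve sheath tumors. The labels name no Cre driver and no age or sex of the mice. From 100 ng RNA, biotinylated cRNA was made with 1 round of amplification. Of the 2 array chips, chip 1 carried the first 2 tumors of each group and chip 2 the other 3. All 8 melanocyte markers checked, Tyr and Pmel among them, were detected in every pigmented tumor, and all 8 were lower in the MPNST-like group. MPNST-like 5 kept more of them, with Dct at 14.01 against 13.95 to 14.30 in the pigmented tumors. Its mean log2 level of the 8 markers, around each gene's mean, was 0.07. The other MPNST-like tumors had -4.71 to -2.15, and the pigmented tumors 2.63 to 2.98. Of 5 measured Schwann cell markers, 3 were higher in the MPNST-like tumors and 1 lower.

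A ribosome joins a small subunit, which reads the mRNA, to a large subunit, which forms the peptide bond and releases the chain through an exit tunnel. Nearly every ribosomal protein is needed in a single copy per ribosome, and their mRNAs share a start of pyrimidines (the 5′ TOP tract) through which the kinase complex mTORC1 sets their translation. Their promoters are known to bind factors of the ETS family. The mRNAs are among the most abundant of a cell and have many processed pseudogenes, so a probe may also read near-identical transcripts.

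Promoter stretches from RefSeq (GRCm38.p6) are shown for the 4 genes with the largest rises, then for 3 that did not pass the test, because the results below turn on the contrast between them. All 7 have 1 annotated start in the table. Each holds the 100 bases before the annotated start and the first 20 after it, 5′ to 3′ on the gene's strand. Capitals mark the ETS core, CCGGAA on either strand. Rpl35 and Rplp2 each hold 1 core outside the stretch shown, within the longer window described below.
Rpl26 (chr11:68901466-68901585, plus strand): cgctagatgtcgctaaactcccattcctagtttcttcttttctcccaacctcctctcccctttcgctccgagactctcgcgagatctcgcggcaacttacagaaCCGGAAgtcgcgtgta
Rpl31 (chr1:39367751-39367870, plus strand): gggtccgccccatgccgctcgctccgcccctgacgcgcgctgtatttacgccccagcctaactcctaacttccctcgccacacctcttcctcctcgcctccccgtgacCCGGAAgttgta
Rps6 (chr4:86857348-86857467, minus strand): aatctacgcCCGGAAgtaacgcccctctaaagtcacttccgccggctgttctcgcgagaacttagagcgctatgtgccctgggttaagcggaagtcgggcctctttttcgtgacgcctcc
Rpl35 (chr2:39005112-39005231, minus strand): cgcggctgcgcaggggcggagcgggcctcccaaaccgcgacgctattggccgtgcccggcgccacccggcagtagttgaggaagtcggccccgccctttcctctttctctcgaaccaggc
Rpl28 (chr7:4792865-4792984, plus strand): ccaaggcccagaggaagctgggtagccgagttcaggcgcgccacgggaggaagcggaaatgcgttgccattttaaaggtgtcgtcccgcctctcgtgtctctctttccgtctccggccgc
Rplp2 (chr7:141447551-141447670, plus strand): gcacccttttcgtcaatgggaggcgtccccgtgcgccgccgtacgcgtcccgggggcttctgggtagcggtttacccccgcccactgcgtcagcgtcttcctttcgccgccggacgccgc
Rplp0 (chr5:115559367-115559486, plus strand): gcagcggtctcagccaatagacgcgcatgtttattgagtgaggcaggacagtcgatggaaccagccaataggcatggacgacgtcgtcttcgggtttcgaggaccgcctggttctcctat

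Of the 52 genes, 44 had a promoter in the table, and 7 of these had several annotated starts. In the full window of 250 bases before and 50 after a start, CCGGAA on either strand occurred in 25 of 44 (56.8%). Among all 27025 genes with such a promoter, detected here or not, it occurred in 16.7%. A gene with several starts counted if any of them held the core. Median GC content was 59.2% for the 44 genes and 52.8% for all. The core occurred in 14 of 21 genes that rose and in 11 of 23 that did not. Among all genes with a promoter, 23.7% had a run of at least 8 pyrimidines that overlapped the 20 bases on either side of a start. Of the 44 genes, 22 had one. The split was 11 of 21 among those that rose and 11 of 23 among the others. The TATA box, TATAAA on either strand, was no more frequent in the 44 genes (11.4%) than in all genes with a promoter (15.7%). No test was made of these counts, and a match of letters is not a binding site.

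After quantile normalization, many but not all ribosomal protein genes had a higher signal in MPNST-like than in pigmented tumors. With the adjusted p below 0.05, 25 of 52 genes (48.1%) rose and 1 fell, and 26 did not pass. Among all genes 18.6% were called higher and 20.2% lower (limma, Benjamini-Hochberg). All 5 MPNST-like tumors lay above all 5 pigmented tumors for 24 of the 52 genes (46.2%), where 12.1% of all genes did so, and below them for 1 gene, as for 13.8% of all genes. The median log2 difference was 0.39 for the family and 0.01 for all genes. Differences spread from -0.38 to 1.66 with an SD of 0.51 between genes, where the median SE of one gene was 0.15. The direction of the family as a whole depended on how the arrays were scaled, as given further down.

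**Figure D1:**
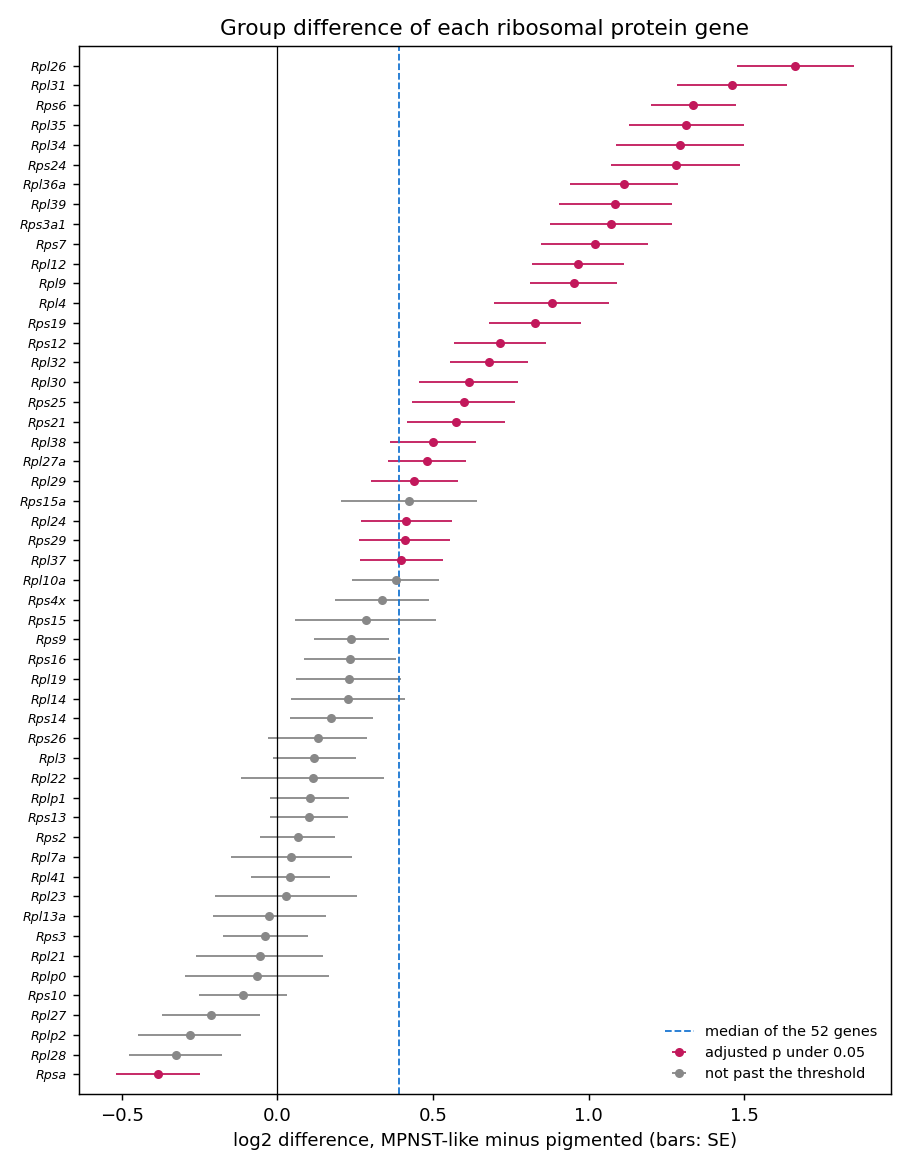
Log2 difference (MPNST-like minus pigmented, x axis) with its SE for each of the 52 ribosomal protein genes, after quantile normalization, with 5 tumors per group. The 25 genes that rose run up to 1.66 for Rpl26, and the family median stands at 0.39 (dashed line).

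Proteins around the exit of the peptide tunnel included the largest rises. Of 7 measured genes of a list of 9 tunnel and exit site proteins, 5 rose and 0 fell, with a median of 1.09, where 18.6% of all genes and 48.1% of the family rose. In the authors' values 1 of the 7 was higher and 0 lower, with a median of 0.43. Rpl26, which sits at the tunnel exit and is known to bind the mRNA of p53, had log2 intensities of 11.14, 10.85, 11.09, 11.85 and 10.91 in pigmented 1 to 5. In MPNST-like 1 to 5 it stood at 12.74, 12.80, 12.89, 12.88 and 12.84. The lowest MPNST-like tumor therefore lay above the highest pigmented one, pigmented 4, and the MPNST-like tumors lay close together. Rpl26 was 3.17-fold higher (log2 difference 1.66, SE 0.19, adjusted p = 1.1e-04).

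Rpl31, another protein at the exit, had 11.92, 11.89, 11.96, 12.47 and 11.52 in the pigmented tumors and 13.29, 13.21, 13.52, 13.57 and 13.47 in the MPNST-like ones. The groups did not overlap, and the difference was 1.46 (SE 0.18, adjusted p = 1.6e-04), or 2.75-fold. Its 2 other probes gave 1.11 and 0.99, and both passed. Rpl35, at the same site, was 2.49-fold higher (1.31, SE 0.18, adjusted p = 3.7e-04). Rpl39, a short protein that lines the tunnel wall, was 2.12-fold higher (1.09, SE 0.18, adjusted p = 9.8e-04). Rpl4, whose loop narrows the tunnel, stood at 0.88 (SE 0.18, adjusted p = 0.0035) on its brighter probe, while a second probe close to background gave -0.21 and did not pass. The exit site protein Rpl19 (0.23, adjusted p = 0.30) and Rpl22 (0.11, adjusted p = 0.73), which binds viral and cellular RNAs, did not pass, and their groups overlapped.

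Among the other large subunit proteins, Rpl34 rose by 1.29 (SE 0.21, adjusted p = 7.5e-04), Rpl36a of the tRNA exit site by 1.11 (SE 0.17, adjusted p = 6.8e-04) and Rpl9, near the site where factors bind, by 0.95 (SE 0.14, adjusted p = 4.9e-04). Their groups did not overlap. In all, 16 of 31 large subunit genes rose and 0 fell, with a median of 0.40. Smaller rises, from 0.40 to 0.68, were those of Rpl32, Rpl30, Rpl38, Rpl27a, Rpl29, Rpl24 and Rpl37, and a dimmer Rpl38 probe gave -0.20 and did not pass. All of these genes were negative in the authors' values, where Rpl38 passed as lower (-0.58, adjusted p = 0.032). Rpl10a, Rpl14, Rpl3, Rpl7a, Rpl23, Rpl21 and Rpl27 lay between -0.21 and 0.38 and did not pass. Rpl41, the shortest ribosomal protein, had 13.90, 13.72, 14.09, 14.12 and 14.04 in the pigmented tumors. In the MPNST-like tumors it had 13.91, 13.97, 14.12, 13.99 and 14.08. Its groups overlapped and its difference of 0.04 (SE 0.13, adjusted p = 0.82) did not pass. Rpl13a, known in human cells for silencing inflammatory mRNAs, stood at -0.03 (SE 0.18, adjusted p = 0.93).

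The stalk, which recruits the elongation factors, was split. Rpl12, at its base, had 12.20, 12.32, 11.82, 12.42 and 11.96 in the pigmented tumors and 13.12, 13.08, 13.07, 13.28 and 13.00 in the MPNST-like ones. It rose 1.96-fold (0.97, SE 0.15, adjusted p = 6.0e-04). The 3 acidic stalk proteins did not pass, and their groups overlapped. Rplp2 had 13.30, 13.59, 13.77, 13.74 and 13.68 in the pigmented tumors and 13.67, 13.32, 13.45, 12.91 and 13.33 in the MPNST-like ones (-0.28, SE 0.17, adjusted p = 0.20). Rplp1 stood at 0.10 (SE 0.13, adjusted p = 0.54). Rplp0, which holds both of them, stood at -0.07 (SE 0.23, adjusted p = 0.85). Its pigmented values ran from 6.75 in pigmented 2 to 8.04 in pigmented 5, and its MPNST-like values from 7.31 to 7.77. Rpl28, a protein that budding yeast lacks, stood at -0.33 (SE 0.15, adjusted p = 0.11), with 13.22, 13.14, 13.42, 13.06 and 13.52 in the pigmented and 13.05, 12.99, 13.12, 12.60 and 12.97 in the MPNST-like tumors. In the authors' values 31.9% of all genes passed as lower. So did Rplp1 (-1.18), Rplp2 (-1.28) and Rpl28 (-1.25) there, while Rplp0 (-0.47) and Rpl12 (0.13) did not pass. After median scaling Rplp1 (-0.41) also passed as lower.

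**Figure D2:**
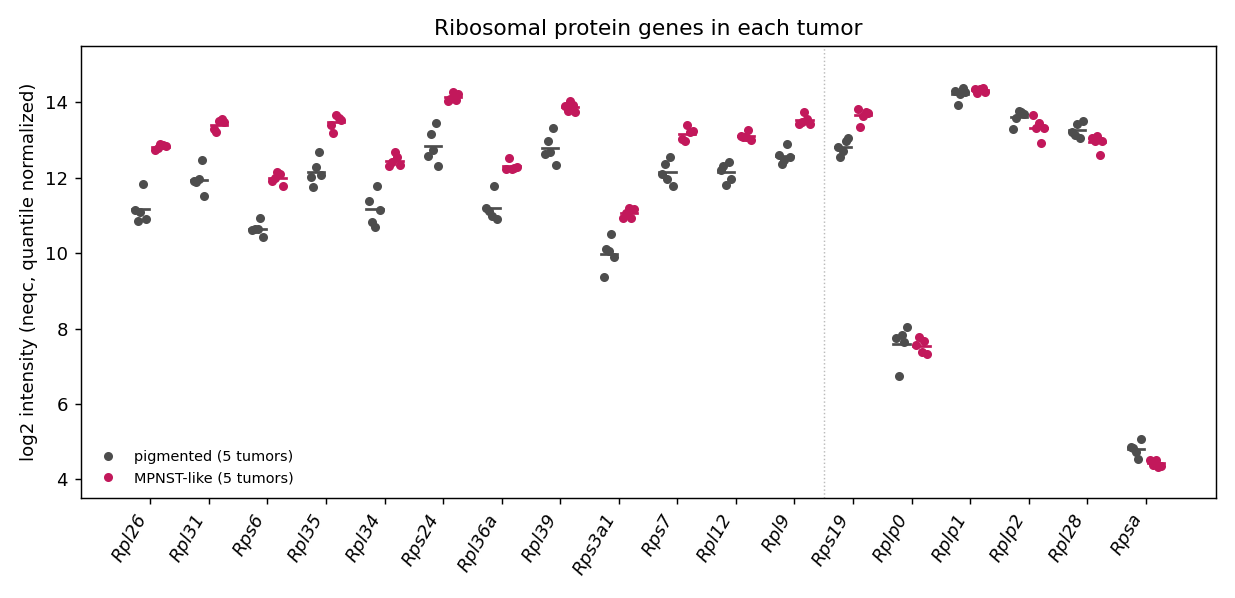
Log2 intensity in each tumor (y axis) of the 12 genes with the largest rises and, right of the dotted line, of 6 others, with bars at the group means of 5 tumors. The pigmented and MPNST-like tumors do not overlap for the 12 genes or for Rps19, nor for Rpsa, which is lower in the MPNST-like tumors, and they overlap for Rplp0, Rplp1, Rplp2 and Rpl28. Heights of different genes come from different probes and are not comparable.

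Of 21 small subunit genes 9 rose and 1 fell, with a median of 0.34. Rps6, the protein that S6 kinase phosphorylates downstream of mTORC1, had 10.63, 10.64, 10.64, 10.93 and 10.44 in the pigmented tumors. In the MPNST-like tumors it had 11.92, 11.99, 12.15, 12.10 and 11.79. The groups were separate by more than either group's range, and Rps6 was 2.53-fold higher (1.34, SE 0.14, adjusted p = 6.4e-05). Rps24 rose by 1.28 (SE 0.21, adjusted p = 8.1e-04), Rps3a1 of the subunit's platform by 1.07 (SE 0.20, adjusted p = 0.0017) and Rps7, which can bind the p53 regulator Mdm2, by 1.02 (SE 0.17, adjusted p = 0.0010).

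Rps19, whose human counterpart is the best known gene of Diamond-Blackfan anaemia, had 12.83, 12.56, 12.71, 12.98 and 13.07 in the pigmented tumors. In the MPNST-like tumors it had 13.82, 13.35, 13.65, 13.74 and 13.73, without overlap (0.83, SE 0.15, adjusted p = 0.0015). A second Rps19 probe close to background went the other way (-0.61, adjusted p = 0.048), and Rps19 was the only gene here whose probes passed in opposite directions. Of 11 measured genes linked to that anaemia in humans, 7 rose and 0 fell, with a median of 0.83, beside the same 18.6% of all genes and 48.1% of the family. In the authors' values 1 was higher and 4 lower (median 0.16). Rps12, on the beak of the subunit, rose by 0.71 (SE 0.15, adjusted p = 0.0033), and its second probe gave 0.67 and passed too. Rps21 (0.58), Rps25 (0.60) and Rps29 (0.41) had smaller rises, and the groups overlapped for Rps25 and Rps29. All of these were negative in the authors' values, where Rps29 passed as lower (-0.81, adjusted p = 0.017). Rps15a, Rps15, Rps9, Rps16, Rps14, Rps13 and Rps10 lay between -0.11 and 0.42 and did not pass, although the groups did not overlap for Rps9.

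Around the path of the mRNA, Rps2, Rps3 and Rps26 stood between -0.04 and 0.13 and did not pass. In the authors' values Rps2 (-1.06), Rps3 (-0.85) and Rps26 (-0.74) passed as lower, as did 31.9% of all genes. After quantile normalization Rpsa, also known as the laminin receptor, was the 1 gene that fell (-0.38, SE 0.13, adjusted p = 0.043). Its probe was barely above background, with 4.86, 4.83, 4.72, 4.54 and 5.08 in the pigmented tumors and 4.52, 4.39, 4.52, 4.32 and 4.36 in the MPNST-like ones. It was detected in 5 pigmented tumors and 1 MPNST-like tumor, and the call was lost in 16 of 24 alternatives. Rps4x, the X-linked form, stood at 0.34 (SE 0.15, adjusted p = 0.10), whereas the other X-linked genes Rpl36a and Rpl39 rose as given above.

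For 17 of the 52 genes several probes were kept. Of 23 such further probes, 15 had the sign of the brightest one. The probe's brightness in the pigmented tumors and the group difference had a weak relation across the 52 genes (Pearson r = 0.06, Spearman rho = -0.14), as a description only, since the genes share arrays. The brightest of these probes reached 17232 to 22776 in the pigmented and 17489 to 23397 in the MPNST-like arrays, where the highest intensity of any probe was 20657 to 26499 and 17934 to 24842.

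The direction of the family differed between scalings of the arrays. Quantile normalization without background correction gave 27 genes higher and 0 lower (17.3% and 19.8% of all genes), and cyclic loess gave 24 and 0 (19.4% and 17.6%). Median scaling moved the family median to 0.31, but it moved the median of all genes to 0.27, so the distance between them shrank from 0.38 to 0.04. It left 18 genes of the family higher and 1 lower (29.1% and 9.2% of all genes). The lower gene was Rplp1 (-0.41, adjusted p = 0.047), while Rpsa did not pass (-0.245, adjusted p = 0.16). In the authors' deposited values the family median was -0.47 and the median of all genes -0.22. There 2 genes, Rpl26 (0.83, adjusted p = 0.011) and Rps6 (0.58, adjusted p = 0.029), were higher and 21 lower (10.2% and 31.9% of all genes). Each array's deposited values followed its intensities with a slope of 1.11 to 2.62 in the pigmented group, against 0.578 to 1.10 in the other. Ranked within each array, which needs no scaling, the median gene of the family lay at the 98.8 to 99.2 percentile in pigmented and at the 99.3 to 99.5 percentile in MPNST-like tumors. By this measure 3 genes rose and 1 fell (15.2% and 21.5% of all genes). Genes this near the top of the ranks have little room to rise, so these counts are not comparable with those of the other scalings. As a share of all signal left after subtracting each array's background, the family made up 4.64% to 5.74% in the pigmented arrays. In the MPNST-like arrays its share was 5.54% to 6.31%, so the groups overlapped. Background here is the median intensity of probes with a detection p-value of 0.45 to 0.55.

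**Figure D3:**
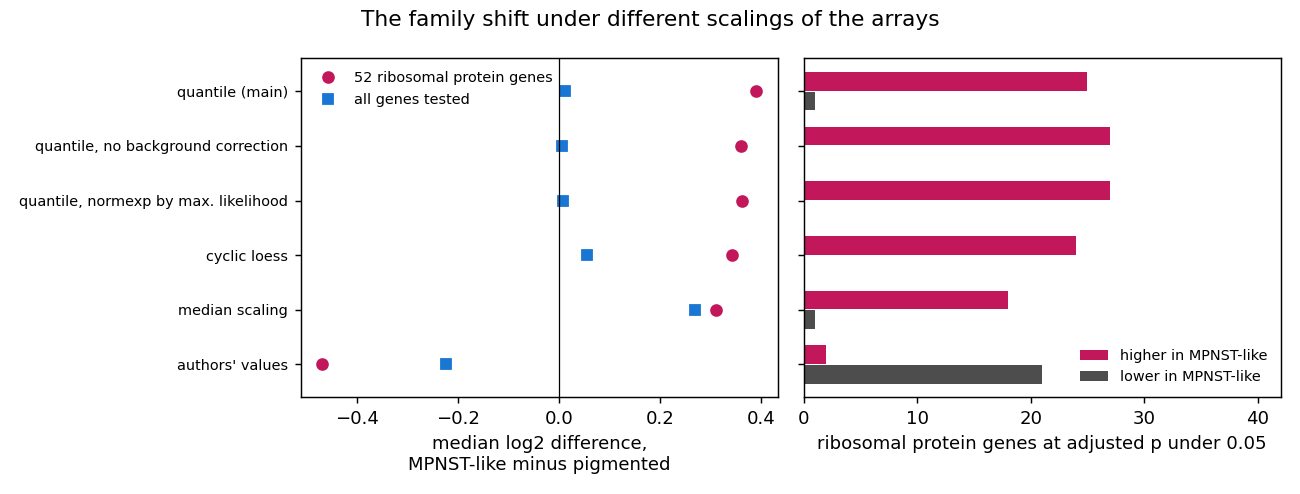
Left, median log2 difference (x axis) of the 52 ribosomal protein genes and of all genes tested under 6 ways of processing. Right, number of ribosomal protein genes higher or lower at an adjusted p under 0.05. The family median runs from 0.39 after quantile normalization to -0.47 in the authors' values, where 2 genes are higher and 21 lower.

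A factor common to all genes of an array cancels in differences within the family. Each array was therefore also centred on the median of the 52 genes, a choice made after seeing the data. That median was 12.30, 12.37, 12.37, 12.64 and 12.33 in pigmented 1 to 5 and 13.04, 12.95, 13.10, 12.90 and 12.98 in MPNST-like 1 to 5. Relative to it, 11 genes were higher and 18 lower at an adjusted p under 0.05 (7.45% and 52.6% of all genes after the same centring, which moves the whole array down). The balance between the 2 directions follows from the centring. It subtracts the difference between the group means of these array medians (12.40 in pigmented and 12.99 in MPNST-like tumors). That is more than the family's median difference of 0.39, so the median centred difference of the 52 genes was -0.20. Relative to the family, Rpl26 stood at 1.07 (SE 0.17, adjusted p = 3.2e-04), Rpl31 at 0.87 (SE 0.16, adjusted p = 0.0010) and Rps6 at 0.74 (SE 0.14, adjusted p = 0.0010). Toward the other end Rpl28 stood at -0.92 (SE 0.17, adjusted p = 0.0010), Rplp2 at -0.88 (SE 0.16, adjusted p = 8.7e-04) and Rps3 at -0.63 (SE 0.13, adjusted p = 0.0018).

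Rpl26 and Rplp2 kept these positions within narrow ranges across the scalings. For bright probes, median scaling, no scaling and the authors' values differ mostly by a factor per array, which the centring removes. Agreement among these scalings therefore follows largely from the arithmetic and is no separate support. The centred difference of Rpl26 was 1.09 in the authors' values, 1.11 after median scaling, 1.06 without background correction or scaling and 1.03 after cyclic loess. For Rplp2 the same 4 values were -1.03, -1.05, -1.01 and -0.99. Of the 52 genes, 46 kept their sign under all 5 scalings, 15 of them with a positive and 31 with a negative centred difference. For the same reason the 5 scalings are not independent checks. The centred differences after quantile normalization correlated with those in the authors' values at r = 0.87 across the 52 genes, which share the same arrays. Other genes moved more, some with dim and some with bright probes. Rpsa, the lowest after quantile normalization (-0.98, SE 0.17, adjusted p = 6.5e-04), stood at -0.19 in the authors' values. Rplp0 went from -0.66 to -0.21 in the authors' values, and Rpl14, detected in 1 pigmented and 4 MPNST-like tumors, went from -0.37 to 0.42. With bright probes, Rplp1 went from -0.49 to -0.92, Rps29 from -0.19 to -0.55 and Rps12 from 0.12 to -0.20 in the authors' values.

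**Figure D4:**
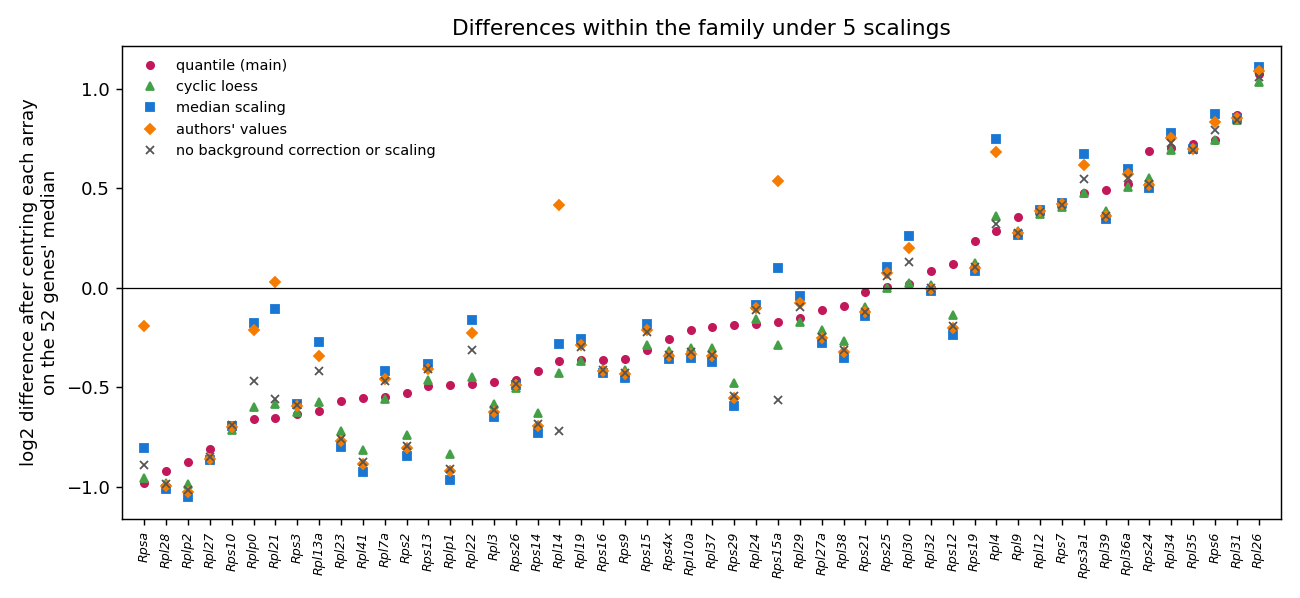
Log2 difference between the groups (y axis) of each ribosomal protein gene after each array was centred on the median of the 52 genes, for 5 scalings (symbols). Rpl26, Rpl31 and Rps6 stay at the top and Rpl28, Rplp2 and Rpl27 near the bottom. Dim probes such as those of Rpl14 and Rps15a spread, and some bright ones such as that of Rplp1 move as well.

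Both chips were also analysed alone. The family median was 0.56 within chip 1 (2 tumors per group) and 0.30 within chip 2 (3 per group). Rpl26 stood at 1.78 and 1.59, Rps6 at 1.32 and 1.35, and Rps24 at 1.19 and 1.34 within chip 1 and chip 2. The difference was positive within both chips, called or not, for 37 of the 52 genes (71.2%) and for 40.8% of all genes. At an adjusted p under 0.05 limma called 0 genes of the family higher or lower within chip 1 (15 higher and 0 lower at an unadjusted p under 0.05), where 2.13% of all genes were called higher and 1.13% lower. Within chip 2 it called 15 higher and 0 lower, where 13.3% of all genes were called higher and 14.9% lower. With chip as a block the direction of no named member changed.

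The median SD within groups was 0.21 for the family and 0.34 for all genes. The family's median gene lay at or above the 98.8 percentile of every array, so these SDs are not of genes of like brightness. Pigmented 4 stood apart with 46 of 52 genes above the mean of its group (median deviation 0.16), whereas pigmented 2 had 15 and MPNST-like 2 had 9. Pigmented 4 also had the highest scores of its group for fibroblast (0.54), keratinocyte (1.32), macrophage (0.29) and skeletal muscle markers (3.41), as mean log2 levels around each gene's mean. Without pigmented 4, 25 genes rose and 1 fell (18.8% and 20.7% of all genes) and the family median was 0.43. Between the groups, all 6 fibroblast markers were higher in the MPNST-like tumors, with scores of 1.49 to 2.31 there, against -3.22 to 0.54 in the pigmented tumors. Likewise all 4 measured macrophage markers were higher (-2.17 to 0.29 and 0.40 to 1.87), as were all 4 mast cell markers (-2.40 to -0.03 and -0.59 to 2.39) and 2 of 3 endothelial markers (-1.40 to -0.17 and 0.12 to 1.29). The markers of fibroblasts, macrophages and endothelium were detected on all 10 arrays. Of 3 measured erythrocyte markers 2 were lower in the MPNST-like tumors (-0.46 to 3.65 and -1.75 to 0.53), with the highest score in pigmented 2. No measured marker of keratinocytes, skeletal muscle or T cells passed. The part of these cells in the ribosomal protein differences was not tested. In whole tumors, fewer cells of a type and less RNA per cell cannot be told apart.

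Paralogs outside the naming rule were measured too. Rpl22l1, the paralog that can replace Rpl22, rose by 1.34 (SE 0.26, adjusted p = 0.0022). The difference between this rise and the value of Rpl22 itself (0.11, not passing) was not tested. Rpl22l1 was higher in all 5 MPNST-like tumors than in every pigmented tumor, and its difference was positive in all 25 alternatives (0.90 to 1.82 on the log2 scale) but missed the threshold in 1. Rpl36al (0.66) and Rps27l (0.61), close copies of Rpl36a and Rps27, rose as well, although both turned negative in the authors' values (-0.13 and -0.24). Of 8 measured paralogs 3 rose and 1 fell, Rps23rg1, which was detected in 0 MPNST-like tumors.

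Other parts of the translation machinery were read against the same 18.6% and 20.2% of all genes. Of 9 elongation factors and their regulators 1 rose and 3 fell, with a median of -0.29. Eef2, which moves the ribosome along the mRNA, fell by 1.12 (SE 0.20, adjusted p = 0.0014), its kinase Eef2k fell by 1.48 and Eif5a fell by 0.85, whereas Eef1b2 rose by 0.62. Of 33 initiation factors 4 rose and 10 fell (median -0.17). Eif3b (-1.50), Eif3c (-1.27) and the translational repressor gene Eif4ebp2 (-1.42) fell, and Eif2s2 (1.30) rose. Among 15 other mRNAs known for a 5′ TOP tract 6 rose and 2 fell (median 0.25). Nap1l1 (0.94), Hnrnpa1 (0.79), Npm1 (0.70) and Btf3 (0.60) rose, and Eef2 and Eif4b (-0.82) fell. In the authors' values none of these rises passed, and Npm1 (-0.10) and Btf3 (-0.18) turned negative. After median scaling Eif4b (-0.32, adjusted p = 0.14) did not pass.

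Of 36 ribosome assembly factors 6 rose and 8 fell after quantile normalization (median -0.05). Nop58 (1.10), a core protein of the particles that guide rRNA methylation, and Brix1 (1.07) rose, while Bop1 (-1.55) and Mrto4 (-0.93) fell. Brix1, Bop1 and Mrto4 all act in assembly of the large subunit. Of 13 RNA polymerase I genes 1 rose and 3 fell, with Polr1b at -1.65 and the initiation factor gene Rrn3 at -0.97. A list of 14 measured genes held mTORC1 subunits and regulators, TOP mRNA binding proteins, Myc family members and p53 targets. In it 1 gene rose and 6 fell (median -0.52). The mTORC1 subunit genes Akt1s1 (-1.12) and Mtor (-0.75, adjusted p = 0.029, lost in 9 of 25 alternatives) fell. So did Tsc1 (-0.69) and Tsc2 (-0.86), which restrain mTORC1, and the transcription factor genes Myc (-0.70) and Max (-0.98). The Myc probe was close to background and was detected in 5 pigmented and 0 MPNST-like tumors. After median scaling Tsc1 (-0.26) and Max (-0.52) did not pass, whereas Tsc2 (-0.66) and Akt1s1 (-0.78) still did. Rheb, which activates mTORC1, rose (0.48) but was negative in the authors' values (-0.23). The S6 kinase family member Rps6ka3 fell by 1.26. Mitochondrial ribosomal proteins, measured for 72 genes, had 15 higher and 16 lower and a median of -0.01.

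The balance of these lists moved with the scaling, as that of all genes did. Ribosome assembly factors had 13 higher and 1 lower after median scaling (median 0.35), but 0 higher and 14 lower in the authors' values (median -0.35). The other TOP mRNAs had 6 higher and 1 lower (median 0.12) and then 0 higher and 7 lower (median -0.56) in the same order. For mitochondrial ribosomal proteins the counts were 23 higher and 5 lower (median 0.33) and then 5 higher and 33 lower (median -0.50). Initiation factors had 8 higher and 6 lower (median 0.11) and then 2 higher and 19 lower (median -0.77). Elongation factors had 2 higher and 3 lower (median -0.12) and then 0 higher and 6 lower (median -0.89). RNA polymerase I genes had 2 higher and 3 lower (median 0.08) and then 1 higher and 8 lower (median -0.73). The list around mTORC1 had 2 higher and 3 lower (median -0.15) and then 0 higher and 10 lower (median -0.73). All genes stood at medians of 0.27 and -0.22 under these 2 scalings. Of all genes 29.1% were called higher and 9.2% lower after median scaling, and 10.2% and 31.9% in the authors' values. Several of the list counts lie near these shares.

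Rplp0 and Rpl13a are often used as reference genes for PCR. Neither passed the test here, but in the authors' values Rpl13a was lower (-0.60, adjusted p = 0.022). Of 12 measured reference genes 3 fell and 0 rose. These were the glycolytic enzyme genes Gapdh (-1.69, SE 0.21) and Pgk1 (-1.66, SE 0.23) and the transferrin receptor gene Tfrc (-1.93, SE 0.25), and all 3 also passed as lower with median scaling (Gapdh -1.73) and in the authors' deposited values (Gapdh -2.54). Actb (0.05), Ppia (-0.10) and Tbp (0.00) did not pass, but in the authors' deposited values Actb (-0.95) and Ppia (-1.15) were lower and passed.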

How the data were processed

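Each tumor was hybridized to 1 single-colour Illumina MouseWG-6 v2.0 array of 45281 probes. Per the file headers, the deposited scanner table gives, for each probe and array, the average intensity and a detection p-value. Normalized values deposited by the authors were read as log2 values, because their antilog was linear in the intensity of that array, by a method that is not stated in the labels. They served as an alternative.

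Intensities were corrected and quantile normalized with neqc (background from the detection p-values, offset 16) in limma 3.58.1 under R 4.3.3. The 22480 probes kept had a detection p-value below 0.05 on 3 or more arrays. Of all probes 34885 had 1 gene symbol, 18 several and 10378 none, and Entrez identifiers tied 34807 of them to RefSeq (GRCm38.p6). The brightest probe stood for a gene, which gave 11984 genes. Median intensity was 79.4 to 89.0 on the pigmented arrays, and 87.4 to 93.9 on the MPNST-like ones. The number of arrays limits the precision.

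Differences are MPNST-like minus pigmented, fitted by lmFit and eBayes in limma with Benjamini-Hochberg adjustment over all genes. Replicate numbers follow the order of the samples and pair no tumors. Nothing in the labels says that the tumors came from separate animals, so the p-values measure only the spread between these samples, which may be technical. The members and lists were chosen with earlier results of these data known. Genes named are the 12 higher members with the largest differences, the 1 lower member, fixed members (Rplp0, Rpl13a, Rps19, Rps4x, Rpl22 and Rpl41 among them) and up to 4 genes of each list. Any other gene was named after its values were seen. Alternatives changed the background correction, scaling, filter, probe rule, variance model, chip and tumors included. Plots were made in matplotlib 3.10.9 (Python 3.11.15).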

Additional observations from a re-analysis of the deposited data

Results flagged for a closer look

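For 8 genes named here, 1 tumor lay far from the other 4 of its group, by a gap of more than 0.71 of the group's range. These came from 110 groups of 5 tumors examined, of which chance gives about 1 in 20. Rpl26 stood at 11.85 in pigmented 4, where the next tumor had 11.14. Rpl36a stood at 12.52 in MPNST-like 2, above 12.29 in the next, and Rpl22 stood at 8.892 in the same tumor, below 9.516. The paralog Rpl22l1 stood at 8.29 in MPNST-like 3, above 7.945. In MPNST-like 1, Eif3c stood at 8.122, Rrn3 at 7.632 and Max, the partner of Myc, at 5.639, each above the other tumors of its group. Mtor stood at 6.641 in pigmented 2, below 7.391 in the next.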

How the results depend on the processing

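The number of ribosomal protein genes higher in the MPNST-like tumors was 25, and became 2 in the authors' values, 3 by percentile rank, 0 within chip 1 and 15 within chip 2. It ran from 21 to 25 when single tumors were left out. Counts by percentile rank are limited, because genes near the top of the ranks have little room to rise. The number lower was 1 (Rpsa, but Rplp1 after median scaling), ran from 0 to 1 without single tumors and became 21 in the authors' values. It became 0 without background correction (with or without scaling), with normexp by maximum likelihood, cyclic loess or the strict filter (detection p under 0.01 on 5 arrays), with chip as a block, within either chip, or once the 3 muscle-rich tumors (pigmented 4, MPNST-like 2 and 5) were left out. The family median of 0.39 reversed to -0.47 in the authors' values, and was 0.26 with the mean of a gene's probes, 0.56 within chip 1 and 0.60 with neither background correction nor scaling. The median of all genes, 0.01, was 0.27 after median scaling, -0.22 in the authors' values and 0.27 with neither correction nor scaling. The family minus all genes, 0.38, was 0.041 after median scaling, -0.24 in the authors' values, 0.27 with the mean of probes and 0.56 within chip 1. After centring each array on its family median, the 11 genes above became 6 with the mean of probes, 0 within chip 1, 5 within chip 2 and 3 by percentile rank. They ran from 7 to 11 without single tumors. The 18 below became 0 within chip 1, 7 within chip 2, 11 without the muscle-rich tumors and 1 by percentile rank, and ran from 12 to 20 without single tumors. In the authors' values Rps19 (-0.15), Rps12 (-0.46), Rpl41 (-1.14), Rpl36al (-0.13), Rps27l (-0.24) and Eef1b2 (-0.15) turned negative. So did Npm1, Btf3 and Rheb. The smaller rises of Rpl32, Rpl30, Rpl38, Rpl27a, Rpl29, Rpl24, Rpl37, Rps21, Rps25 and Rps29 turned negative there as well. Of these, Rpl38 (-0.58) and Rps29 (-0.81) passed as lower. Rpsa stood at 0.029 with neither correction nor scaling. Analyses of single chips hold fewer tumors; the causes of the other changes were not tested. No paired analysis was possible because the replicate numbers only follow the order of the samples. Probes near background, such as those of Rpsa, Rpl14 and Rps15a, limit what can be said of these genes.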

Other observations

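The chromosomes with the most of the 52 genes in RefSeq's annotation are chromosome 7 with 10, of which 2 rose, and chromosome 9 with 6, of which 3 rose. Of the whole family 48.1% rose, and of all genes 18.6%. The share of all genes on each chromosome that rose was not computed, so these small counts show no difference between chromosomes. The median GC content of the promoter windows was 59.7% for genes that rose and 59.0% for those that did not, against 52.8% for all genes with a promoter.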
